A study of Mus musculus with 2 samples.

Results

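The genes described here are the 6 sarcomeric myosin light chain genes Myl1, Mylpf, Myl2, Myl3, Myl6b and Mylk2, read in gastrocnemius, the large calf muscle, of male B6CASTF1/J mice (first-generation offspring of C57BL/6J and CAST/EiJ) aged 18 to 20 months. They were chosen by name, as the essential and regulatory light chains and their skeletal muscle kinase, among 14900 annotated genes with reads. Of the 6 genes, 5 had reads in replicate 1 and 6 in replicate 2. The series holds 1 group of 2 long-read RNA libraries and no second condition, with 2 µg of total RNA going into each and ERCC and SIRV spike-in RNA added. The labels name separate biosamples that share 1 donor entry, and whether that entry stands for 1 mouse or for the strain, and whether tissue was pooled, is not given in the sources used here. Each SD (n = 2) may therefore lie between animals or within 1 animal. P-values describe differences between these libraries, and such differences have no replicate check.

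A myosin motor is built from heavy chains, and the lever arm of each heavy chain carries an essential and a regulatory light chain. Fast fibres use the light chains of Myl1 (essential) and Mylpf (regulatory), and slow fibres those of Myl3 and Myl2, which the ventricle of the heart also uses. Myl6b encodes a further essential light chain. Mylk2 encodes the calmodulin-dependent kinase that phosphorylates the regulatory light chain of skeletal muscle. Myl1 makes a long and a short protein from separate first exons, and the long one carries an extra amino-terminal stretch.

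The genes lie on mm10 chromosome 1 (Myl1, 66924295 to 66945404, minus strand), chromosome 7 (Mylpf, 127208890 to 127214298, plus strand), chromosome 5 (Myl2, 122100951 to 122113472, plus strand), chromosome 9 (Myl3, 110741861 to 110769798, plus strand), chromosome 10 (Myl6b, 128494157 to 128498685, minus strand) and chromosome 2 (Mylk2, 152911352 to 152923068, plus strand). The exons that separate the Myl1 forms, and their counterparts in the other essential chains, are shown because the reads tell the forms apart by them. All sequences are from GENCODE M21 transcripts, which carry the C57BL/6J reference, and run 5′ to 3′ on the gene's strand. The coding part of the long first exon (chr1:66944792-66944905) has its start codon in capitals. The 25-base exon of the short form is at chr1:66934518-66934542. In the 28-base exons of Myl1 (chr1:66934246-66934273), Myl3 (chr9:110766479-110766506) and Myl6b (chr10:128496614-128496641), capitals mark bases unlike Myl1.
Myl1 long first exon: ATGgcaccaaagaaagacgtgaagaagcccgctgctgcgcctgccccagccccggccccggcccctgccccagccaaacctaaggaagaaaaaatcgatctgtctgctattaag
Myl1 25-base exon: tccttcagtgctgaccagattgccg
Myl1 28-base exon: atcgagttctctaaggagcaacaggagg
Myl3 28-base exon: atcgagttcAcACCTgaAcaGATTgaAg
Myl6b 28-base exon: atcgagttTAACaaggaCcaGcTggagg

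The 28-base exon of Myl1 shared 17 of 28 bases with that of Myl3 and 21 of 28 with that of Myl6b. Over the aligned coding sequence, Myl1 was 71.6% identical to Myl3 and 71.1% to Myl6b. The regulatory chains Mylpf and Myl2 were 70.3% identical over the coding sequence and 84.4% over coding exon 2, which follows an exon that codes only the start codon. That exon is shown because it holds the start of both regulatory chains, with bases unlike the partner gene in capitals (Mylpf at chr7:127212861-127212953, Myl2 at chr5:122101749-122101838).
Mylpf coding exon 2: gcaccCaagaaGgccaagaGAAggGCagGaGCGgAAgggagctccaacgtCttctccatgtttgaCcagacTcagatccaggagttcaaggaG
Myl2 coding exon 2: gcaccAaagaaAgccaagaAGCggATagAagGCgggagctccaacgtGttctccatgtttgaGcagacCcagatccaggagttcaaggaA

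Fast light chains made up nearly all light chain reads. Levels are counts per 1000000 reads in a library (CPM), in which each read counts once and no length correction is made. Replicate 1 held 1509380 reads and replicate 2 held 1173233. Myl1 had 17256 reads in replicate 1 and 6145 in replicate 2, or 11432 and 5238 CPM (8335 ± 4380, SD, n = 2). Mylpf had 16616 and 4658 reads, or 11009 and 3970 CPM (7489 ± 4977, SD, n = 2). Both genes were higher in replicate 1, and by mean level they ranked 9 and 12 among all genes.

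The slow chains were far lower and went the other way. Myl3 had 64 reads in replicate 1 and 235 in replicate 2, or 42.4 and 200.3 CPM (121 ± 112, SD, n = 2). Myl2 had 16 and 83 reads, or 10.6 and 70.7 CPM (40.7 ± 42.5, SD, n = 2). The kinase Mylk2 had 201 and 99 reads, or 133 and 84.4 CPM (109 ± 34.5, SD, n = 2). Per kb of the leading transcript, mean levels were 10380 for Myl1, 9777 for Mylpf, 129.5 for Myl3, 61.4 for Myl2 and 36.9 for Mylk2 (CPM per kb). In that order Myl1 and Mylpf differed by less than their spread between libraries. Myl3 was above Myl2 in both libraries by CPM, while across libraries their ranges overlapped. Without the length correction Mylk2 stood above Myl2. Myl6b had 0 reads in replicate 1, where 3 reads are the limit that a count of 0 allows (1.99 CPM), and 1 read in replicate 2, so it was not detectable above that limit.

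**Figure D1:**
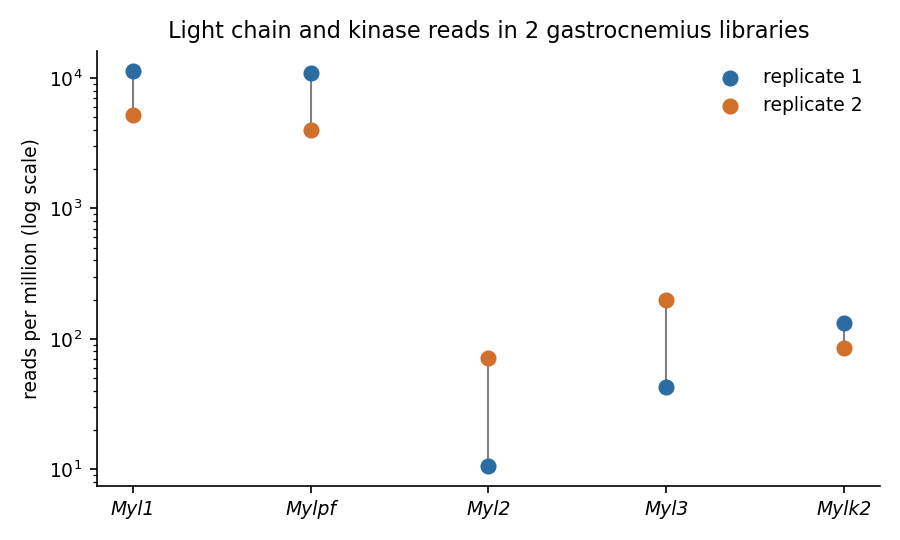
CPM (log scale) of 5 genes in each library, 1 point per library joined by a line. Myl1 and Mylpf lie higher in replicate 1, Myl2 and Myl3 higher in replicate 2. Myl6b, with 1 read in all, is not drawn.

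Of the 5 genes that reached 10 reads in the libraries together, 2 passed the threshold as higher in replicate 2 and 2 as lower. The threshold was at least 2-fold on the log2(CPM + 1) scale with an adjusted p below 0.05 (Fisher's exact test, two-sided, of reads on and off the gene, Benjamini-Hochberg adjustment). Among all 9032 genes tested, 8.24% were called higher and 2.04% lower, 10.3% in all. Myl2 was 6.67-fold higher in replicate 2 (95% exact interval 3.88 to 12.2; log2 ratio 2.63, Fisher's exact test, adjusted p = 1.3e-14). Myl3 was 4.72-fold higher (3.57 to 6.33; log2 ratio 2.21, Fisher's exact test, adjusted p = 1.4e-32). These ratios lay at percentiles 99.3 and 98.8 of all genes tested.

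The fast chains fell in replicate 2. Myl1 was 2.18-fold higher in replicate 1 (2.12 to 2.25; log2 ratio -1.13, −log10 of the adjusted p from Fisher's exact test 669.9). Mylpf was 2.77-fold higher in replicate 1 (2.68 to 2.86; log2 ratio -1.47, −log10 of the adjusted p 973). Mylk2 was 1.58-fold higher in replicate 1 (1.23 to 2.03; log2 ratio -0.65, adjusted p = 0.0018), which missed the fold minimum. Among the 67 genes with a mean of at least 1000 CPM, 6 were called lower in replicate 2, and 1 lay below the ratio of Mylpf.

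Genes with short transcripts had lower ratios. The median log2 ratio was -0.40 over 587 genes whose most read transcript had 600 to 1000 bases, against 0.19 over all genes tested. Of those 587 genes, 6.47% were called lower and 2.21% higher. Centred on the running median of genes with similar transcript length, the log2 ratio was -0.72 for Myl1, which ended its call, and -1.02 for Mylpf, which kept it. The centred ratios of Myl2 and Myl3 were 3.16 and 2.62, both called. ERCC spike-in reads made up 2.71% of replicate 1 and 0.59% of replicate 2. The library totals used for CPM include them, and their part in these ratios was not tested.

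**Figure D2:**
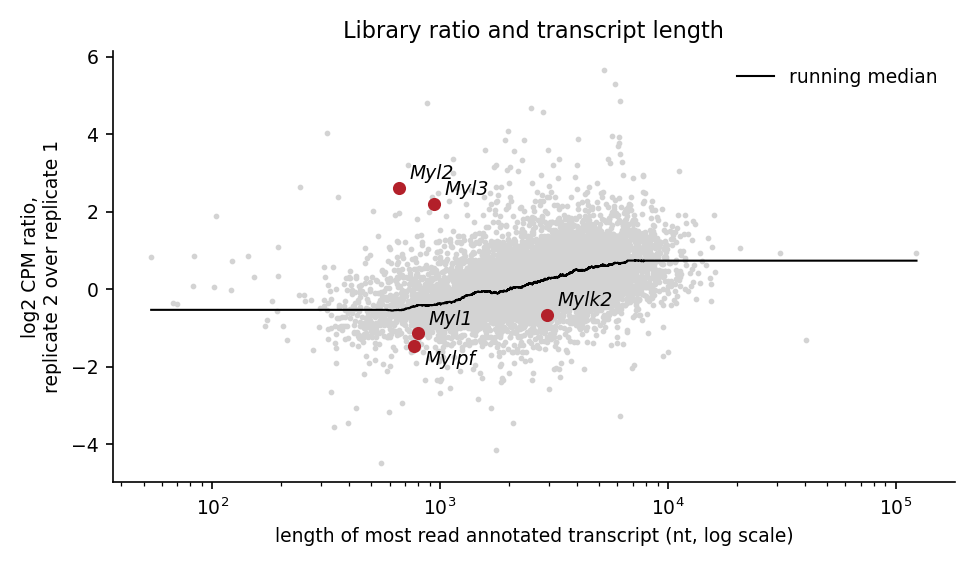
Log2 CPM ratio of replicate 2 over replicate 1 against length of each gene's most read annotated transcript (log scale), 1 grey point per gene, with the running median in black. Myl2 and Myl3 lie above the line at 2.63 and 2.21, Myl1 and Mylpf below it at -1.13 and -1.47.

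The slow share rose in replicate 2 in each kind of myosin chain. Myl2 gave 16 of 16632 fast and slow regulatory chain reads in replicate 1, or 0.096% (0.055 to 0.156), and 83 of 4741 in replicate 2, or 1.75% (1.40 to 2.17). Myl3 gave 64 of 17320 reads of Myl3 and Myl1 in replicate 1, or 0.37% (0.28 to 0.47), and 235 of 6380 in replicate 2, or 3.68% (3.23 to 4.18). The slow heavy chain Myh7 gave 0.324% and 5.86% of the reads of Myh1, Myh2, Myh4 and Myh7. The rise was not limited to the slow heavy chain: the fast Myh2 was 15.5-fold and the fast Myh1 5.11-fold higher in replicate 2, both called, opposite to the fast light chains. The fast Myh4 was 1.28-fold higher with no call, and its log2 ratio of 0.36 became -0.32 after length centring. Intervals are 95% Clopper-Pearson and cover counting error only. They did not overlap between the libraries for any of the 3 shares.

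The shares differed 18.2-fold for Myl2 (Fisher's exact test, p adjusted over 4 shares = 9.1e-39), 9.97-fold for Myl3 (adjusted p = 5.6e-78) and 18.1-fold for Myh7 (−log10 of the adjusted p 531). In these bulk samples, fewer fibres of a type and less RNA per fibre cannot be told apart. Reads of Myh7 per read of Myl2 went from 7.44 to 32.9, and per read of Myl3 from 1.86 to 11.6. Genes with transcripts of like length had median log2 ratios of 0.67 for Myh7, -0.53 for Myl2 and -0.40 for Myl3. Neither the change in these read ratios nor the part of transcript length in it was tested.

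**Figure D3:**
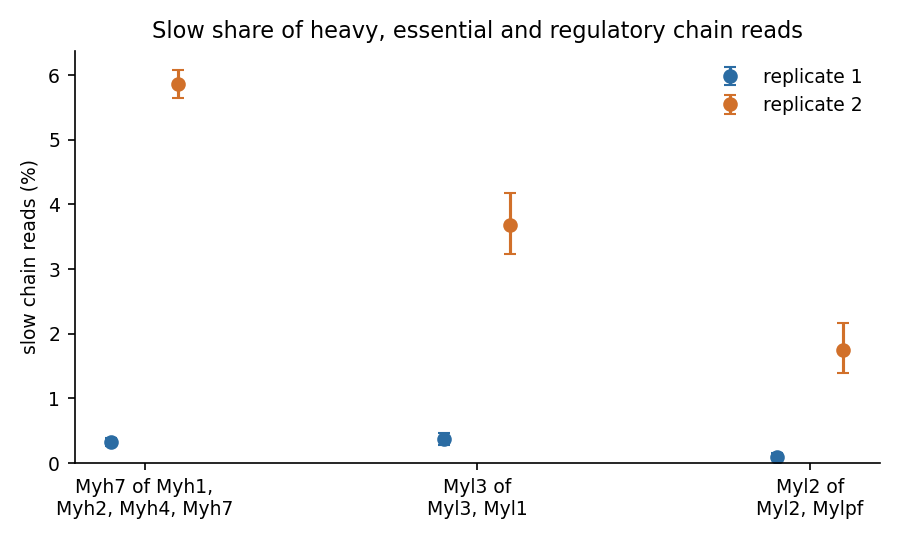
Slow chain reads as a percentage of the chains named under each pair of points, 1 point per library with its 95% Clopper-Pearson interval. Each share is larger in replicate 2, from 0.324% to 5.86% for Myh7, 0.37% to 3.68% for Myl3 and 0.096% to 1.75% for Myl2.

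Essential and regulatory chain reads were of like number. The regulatory to essential ratio was 0.96 in replicate 1 and 0.743 in replicate 2 (0.852 ± 0.154, SD, n = 2). Light chain reads per read of the 4 heavy chains were 0.926 in replicate 1 and 0.239 in replicate 2. The heavy chain transcripts are several times longer than those of the light chains, and the part of length in this difference was not tested.

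Myl2 and Myl3 are also made in the heart. Of the 4 cardiac markers, Myl7, Nppa and Tnni3 had 0 reads in both libraries and Myh6 had 0 and 15, called higher in replicate 2 (Fisher's exact test, adjusted p = 6.0e-05). The 4 smooth muscle markers Myh11, Acta2, Tagln and Cnn1 had summed levels of 50.4 and 92.1 CPM, with none at 0. Of the 3 smooth muscle markers tested, 2 were called higher in replicate 2, Myh11 (log2 ratio 1.78) and Tagln (1.60). The most read smooth muscle marker, Acta2, had 52 and 43 reads (log2 ratio 0.09, no call). Of 3 endothelial markers tested, 1 was called higher, Kdr (log2 ratio 1.98), with summed levels of 21.9 and 55.4 CPM. Of 3 adipocyte markers tested, 1 was called higher, Lep, with 7 and 29 reads (log2 ratio 2.19). Summed levels of the adipocyte markers were 67.6 and 75.0 CPM. The most read of them, Cfd, went the other way, with 77 and 32 reads (log2 ratio -0.88, no call). None of the 4 fibroblast or 4 blood markers was called. Summed levels were 618 and 655 CPM for the fibroblast markers and 205 and 124 CPM for the blood markers. The median log2 ratio of the blood markers was -0.80. The marker calls went the same way as Myl2 and Myl3, as did most calls over all genes (744 higher, 184 lower). Genes of like transcript length had median log2 ratios of 0.69 for Myh11 and 0.68 for Kdr. The blood markers and Cfd went the other way, and Acta2 changed little. The part of other cell types in the light chain differences was not tested. The 5 skeletal muscle markers Acta1, Ckm, Ttn, Des and Tnnt3 were present in both libraries and none was called. Of 7 other light chain genes, 5 were tested and 1 was called: Myl12a, a non-muscle regulatory light chain, rose from 252 reads to 399 in replicate 2 (log2 ratio 1.02, Fisher's exact test, adjusted p = 1.6e-17), but its log2 ratio of 0.82 with TMM or DESeq2 factors missed the fold minimum. Of 3 other light chain kinases, 2 were tested and 0 called. Of 4 myosin phosphatase genes, 3 were tested and 1 was called, Ppp1r12c, with 30 and 50 reads (log2 ratio 1.06, adjusted p = 0.0073), and it too missed the fold minimum with TMM or DESeq2 factors, at 0.87, and after length centring, at 0.77. The 3 calmodulin genes, whose protein activates the kinase, were tested and 0 were called.

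The short form of Myl1 outnumbered the long form in both libraries. Models that began in the short form's first exon (chr1:66935276-66935354) held 12802 of the 15589 reads that began in either first exon in replicate 1, or 82.1% (81.5 to 82.7), and 4624 of 5592 in replicate 2, or 82.7% (81.7 to 83.7). The libraries did not differ detectably in this share (Fisher's exact test, p adjusted over 4 shares = 0.35). The share was 81.5% and 81.6% when starts were read from the splice junction of the first exon, a check added after the data were seen. The first exons are 9437 bases apart.

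Each start went with its own second exon. Of reads from the long first exon, 99.2% in replicate 1 and 99.8% in replicate 2 held only the 28-base exon. Of reads from the short first exon, 94.0% and 93.9% held only the 25-base exon, and 4.46% and 3.98% held both. Exons were counted by overlap. Reads with only the 25-base exon thus include 526 and 273 that kept the intron between it and the short first exon. The most read chain with both exons had 520 and 162 reads. Read from the short form's start codon, the 2 exons together leave 56 bases before exon 3, and the first stop codon comes after 13 codons, inside the 28-base exon. The annotated short form runs for 150 codons and the long form for 188.

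Other Myl1 choices recurred in both libraries at low shares. Reads that kept the first intron of the short form made up 3.16% of Myl1 reads in replicate 1 (2.91 to 3.44) and 4.57% in replicate 2 (4.06 to 5.13). An unannotated upstream exon (chr1:66937443-66937469 in replicate 1), 2088 bases upstream of the short first exon, was joined to the 25-base or 28-base exon in 176 and 43 reads, or 1.02% and 0.70%. Exon 3 was 37 bases longer and joined straight to the short first exon in 165 and 88 reads, or 0.96% and 1.43%. Exon 6 was 26 bases longer, beyond the stop codon, in 221 and 83 reads, or 1.28% and 1.35%. The longer exon 6 occurred with both forms, in 1.19% and 1.52% of short-form reads and 1.65% and 1.54% of long-form reads that reached it. Of 151 unannotated intron chains of Myl1, 48 were found in both libraries and 26 of these had at least 10 reads.

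**Figure D4:**
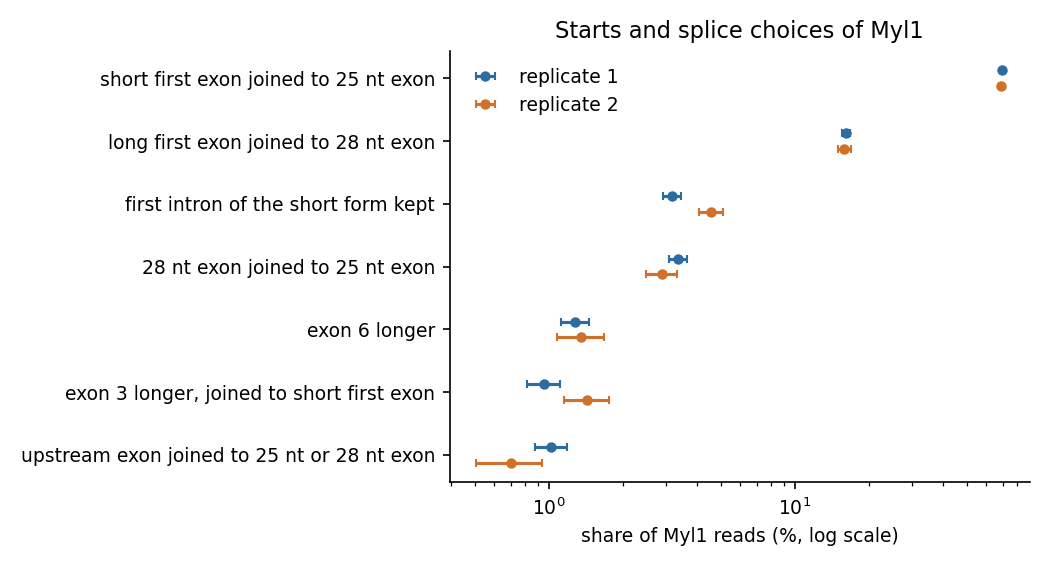
Share of Myl1 reads (%, log scale) with each start or splice choice, 1 point per library with its 95% Clopper-Pearson interval. The short start and its 25-base exon lead at 69.6% and 68.8%, and the long start with its 28-base exon follows at 16.1% and 15.9%. The kept first intron lies at 3.16% and 4.57%.

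Each detected gene was led by 1 annotated transcript. The leading Mylpf transcript held 95.9% and 96.1% of Mylpf reads (96.0 ± 0.133, SD, n = 2), the highest share among the genes. That of Myl3 held 84.4% and 87.7%, that of Mylk2 73.1% and 75.8%, and the full-length short form of Myl1 held 64.9% and 64.1%. Of the 4 genes that reached 20 reads in both, 0 were called by Fisher's exact test (adjusted p from 0.84 to 1), where 2.65% of 4535 genes tested were called. That of Myl2 held 15 of 16 and 62 of 83 reads and was not tested.

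Annotated transcripts took 80.5% and 79.5% of Myl1 reads and 96.1% and 96.2% of Mylpf reads, against 64.2% and 60.8% over all annotated genes. Incomplete splice matches hold only part of the introns of an annotated chain, through missing exons or a kept outer intron. They made up 9.82% and 12.5% for Myl1, 3.65% and 2.34% for Mylpf, and 9.38% and 9.36% for Myl3. For Mylk2 they made up 20.4% and 16.2%, and for Myl2, with few reads, 6.25% and 16.9%. Over all annotated genes the share was 10.2% and 9.55%. Among those of Myl1, 526 and 273 reads missed no exon and kept the first intron of the short form. In Mylpf, Myl3, Myl2 and Mylk2, fewer reads carried the first junction than the last. In Myl3, 89.1% and 89.4% of reads carried the first junction and 95.3% and 98.7% the last. In Myl2, with 16 and 83 reads, 93.8% and 74.7% carried the first and 100% and 98.8% the last. In Mylpf, 96.1% and 96.4% of reads carried the first junction and 98.7% and 98.8% the last. In Mylk2, the longest transcript here at 2951 bases, 76.1% and 83.8% carried the first and 88.6% and 90.9% the last.

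**Figure D5:**
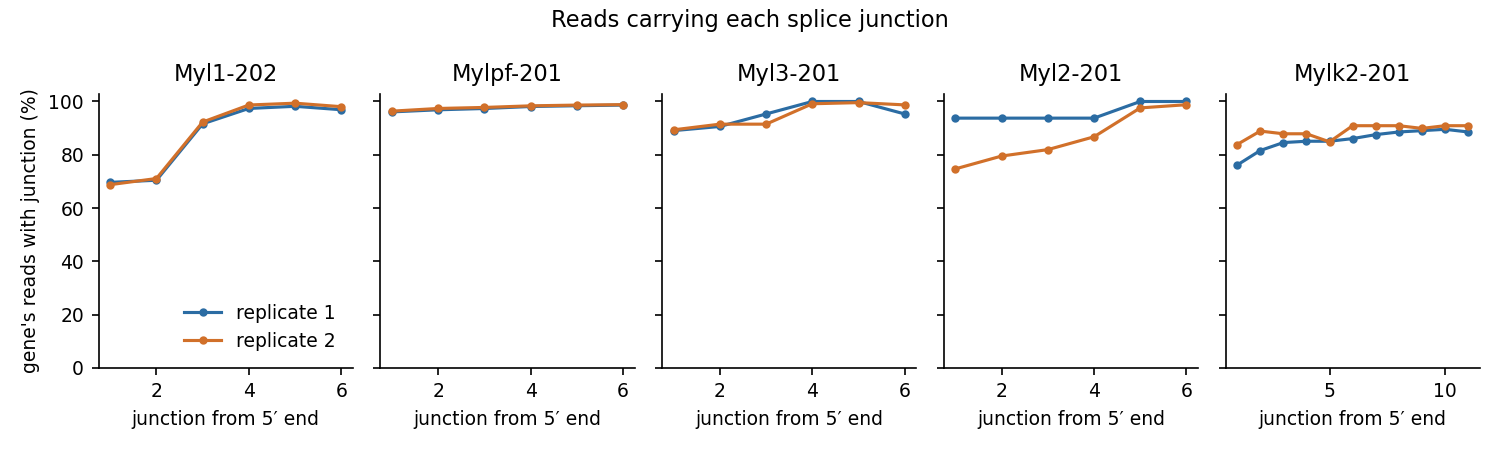
Percentage of a gene's reads that carry each splice junction of its leading transcript, numbered from the 5′ end, 1 line per library. Mylpf stays above 96%, and the Myl1 short form starts at 69.6% and 68.8%, its first 2 junctions not being part of the long form.

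By CPM, Mylpf and Myl1 were lower in replicate 2 and Myl3 was higher. Windows upstream of the annotated starts are shown for the fast Mylpf, the slow Myl3 and the long, less read form of Myl1. They are from RefSeq on GRCm38.p6, end 1 base before the GENCODE start, and were searched on both strands for CANNTG (E-box), TATAAA, and the CArG and MEF2 motifs, with matches in capitals. The windows are chr7:127211358-127211607, chr9:110763428-110763645 and chr1:66945144-66945290. That of Myl1 begins just after an annotated upstream exon of the long form (chr1:66945291-66945404).
Mylpf: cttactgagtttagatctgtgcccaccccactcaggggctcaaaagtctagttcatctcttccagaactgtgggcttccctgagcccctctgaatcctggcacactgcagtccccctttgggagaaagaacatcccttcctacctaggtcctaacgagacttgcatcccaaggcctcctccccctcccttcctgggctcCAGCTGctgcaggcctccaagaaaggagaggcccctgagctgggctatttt
Myl3: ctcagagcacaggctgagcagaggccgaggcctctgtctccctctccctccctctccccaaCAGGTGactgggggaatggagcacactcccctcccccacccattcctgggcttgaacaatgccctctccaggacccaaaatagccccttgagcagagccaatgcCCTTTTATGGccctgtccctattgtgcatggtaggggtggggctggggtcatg
Myl1: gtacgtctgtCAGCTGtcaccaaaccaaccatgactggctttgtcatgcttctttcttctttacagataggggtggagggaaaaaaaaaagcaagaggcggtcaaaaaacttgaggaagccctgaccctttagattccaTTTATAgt

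Each window held 1 CANNTG match, 51 bases before the end of the window for Mylpf, 157 for Myl3 and 137 for Myl1. The same windows of 32851 RefSeq promoters held one in 66.2%, 61.9% and 48.6% of cases. Myl3 held a CArG match 53 bases before the end, found in 1.29% of such windows. Myl1 held TATAAA on the opposite strand, 8 bases before the end, found in 6.96%. No MEF2 match lay in these windows. These are letter matches and were not tested for binding.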

How the data were processed

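Long-read RNA libraries of gastrocnemius were analysed, 2 in 1 group. The authors deposited raw read counts for each transcript model, made from alignments to mm10 with GENCODE M21, per the README files deposited with them, and models with 0 reads were not listed. Model classes and exons came from the deposited TALON annotations. The aligner is not given in the sources used here.

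Counts were summed per annotated gene, with no rows for spike-ins. For CPM they were divided by the library total of all reads, spike-ins included. Genes reaching 10 reads in the libraries together were compared by Fisher's exact test (two-sided) with Benjamini-Hochberg adjustment and a pseudocount of 1. Dominant transcripts needed 20 reads in each library. Models were matched by intron chain, because outer ends of unannotated models often coincided with annotated ends (98.0% and 99.1% of 3′ ends, and 76.4% and 70.1% of 5′ ends, in replicates 1 and 2). Counts cannot separate copies of 1 molecule from separate molecules. The self-tests were run on simulated data.

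Named genes are the 6 members, with other light chains, kinases, phosphatase and calmodulin genes as counts of calls and values for those called, and members' unannotated chains of at least 10 reads found in both libraries. Members and lists were chosen with earlier results of these data known. Alternatives changed scaling (TMM by edgeR 4.0.16, DESeq2 1.42.0, R 4.3.3), transcript length centring, read and fold minimums, pseudocount, read classes, depth and the library left out. Other steps used Python 3.11.15, scipy 1.17.1, numpy 2.4.6, pandas 2.3.3 and biopython 1.88.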

Additional observations from a re-analysis of the deposited data

Results flagged for a closer look

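Reads on the strand opposite Myl1 and Mylk2 came from models outside the counts of these genes and exceeded the 3 reads that a count of 0 allows. At Mylk2 there were 16 such reads in replicate 1 and 24 in replicate 2. At Myl1 there were 18 in replicate 2, and 3 in replicate 1. Of the Mylk2 reads, 15 and 24 came from minus-strand models whose lowest coordinate, their 3′ end, is chromosome 2 position 152913445, also the first base of an exon of the plus-strand Mylk2. At Myl1, 2 and 13 reads came from plus-strand models with their 3′ end at chromosome 1 position 66941194, in the intron between the first exons.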

How the results depend on the processing

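Of the calls between libraries, the 2 higher genes (Myl2 and Myl3) were called under all 9 alternatives. The 2 lower genes became 0 with a 4-fold minimum and 1 after centring on transcript length, and were 2 under the other 7. TMM and DESeq2 factors shifted log2 ratios by -0.20. Calls over all genes were 744 higher and 184 lower, against 446 and 376 with TMM, 442 and 384 with DESeq2, 162 and 39 with the 4-fold minimum, 254 and 150 after length centring, and 790 and 101 with annotated transcripts only. With annotated transcripts only, the regulatory to essential ratio was 1.15 in replicate 1 and 0.892 in replicate 2 (mean 1.02). In that setting the leading transcripts of Myl3 and Mylk2 held 100% of their genes' reads by construction, each being the only annotated transcript read. The members' order by level exchanged Myl2 and Mylk2 per kb, and Myl1 and Mylpf with annotated transcripts only. Leaving out either library, the Myl2 share ranged from 0.096% to 1.75%, the Myl3 share from 0.37% to 3.68%, the Myl1 start share from 82.1% to 82.7% and the regulatory to essential ratio from 0.743 to 0.96. With 2 libraries such values cannot lie more than 1 SD from the mean, so they say nothing about stability. No paired analysis was possible because there was 1 group. Depth limits Myl6b and Myl2 most.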
